A study of Rattus norvegicus with 63 samples.

Results

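The striatal response of drug-naive rats to methamphetamine at 5 mg/kg was read from 6 of the 63 arrays of a psychostimulant self-administration study. They were the 3 striatal arrays labelled methamphetamine (5 mg/kg), samples 1 to 3, and the striatal control arrays, samples 1 to 3, of the same cohort. Of the 5 naive striatal saline arrays, samples 1 to 3 were used because they share the hybridisation batch of the methamphetamine arrays; no measure of drug response entered the choice. The study measured mRNA in the striatum and prefrontal cortex of male Wistar rats with Affymetrix arrays, whose signals were computed with MAS5. Rats arrived at 4 weeks of age and, from 6 weeks of age, received 2 intraperitoneal injections per day for 7 days, of saline in the rats called naive and of drug in those called pretreated. The saline controls of the pretreated cohort, called pretreated saline rats here, have no drug dose in the labels. Conditioned place preference, in which a compartment is paired with drug or saline, and intravenous self-administration followed.

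All rats of the 6 arrays thus had saline injections first. The methamphetamine rats were then conditioned with methamphetamine at 5 mg/kg and self-administered methamphetamine at 0.1 mg/kg per infusion, and the saline rats were conditioned with saline and self-administered 0.1 ml of saline per infusion. Brains were collected on the day that followed the final session, and the rats with the strongest self-administration were chosen. Striatum here means the rostral caudate putamen together with the nucleus accumbens. The comparison groups were naive rats conditioned with methamphetamine at 1.25 mg/kg (same infusion dose), naive rats conditioned with amphetamine at 1.25 or 5 mg/kg (0.1 mg/kg per infusion), naive rats conditioned with methylphenidate at 5 mg/kg (0.25 mg in 0.1 ml per infusion), and pretreated rats that had methamphetamine at 5 mg/kg both in the injection week and in conditioning, with their own saline controls. The prefrontal cortex of rats labelled like those of the 6 arrays completed the set. RNA was pooled before hybridisation and the labels do not tell how many rats each array holds, so that p-values measure the spread between arrays, which may be partly technical. In bulk tissue, fewer cells of a type and less RNA per cell cannot be told apart.

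Methamphetamine enters dopamine terminals, releases dopamine and raises its level in the striatum, where projection neurons read it through D1 and D2 receptors. These receptors act on cAMP signalling and on activity-regulated transcription factors such as Fos and the Nr4a family. The drug also raises body temperature and is known as a stressor of protein folding. Brain cells make their own cholesterol, since the blood-brain barrier keeps lipoprotein cholesterol out, and oligodendrocytes use much of it for myelin. The genes of the pathway are switched on together by SREBP2, which works beside NF-Y, a factor that binds CCAAT boxes, and CREB-type factors.

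All signals were read as log2, on which a difference of 1 is a doubling, after signals below 1 were set to 1. Median signals of the 6 arrays ran from 129.6 to 155.6. All 6 carried the striatal pattern: Drd2 read 11.42 to 12.16 against 6.30 to 8.24 in the prefrontal arrays, and Adora2a 12.15 to 12.47 against 6.72 to 9.12. That includes saline array 1, whose description field names the prefrontal cortex while its title and tissue field name the striatum. Saline arrays 4 and 5 and the amphetamine and methylphenidate 5 mg/kg arrays formed another hybridisation batch by the spiked-in BioB control, which read 6.28 to 7.07 there and 9.56 to 10.38 on the 6 arrays, and they were kept apart. The 3′ to 5′ signal ratio of Gapdh, a sign of RNA or labelling quality, was 0.53, 0.57 and 0.57 on a log2 scale in the saline arrays and 0.71, 0.74 and 1.08 in methamphetamine arrays 1, 2 and 3. The same ratio for beta-actin was 2.71 to 2.77 against 3.46 to 3.83. Both ratios thus moved with treatment, and their part in the differences reported here was not tested beyond a fit with the Gapdh ratio as a covariate.

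After methamphetamine at 5 mg/kg, 5 of 20 genes of cholesterol synthesis fell, as did the myelin lipid enzymes Ugt8, Fa2h and Gal3st1, while the orphan receptor Nr4a3, the zinc finger factor Klf5, the clock gene Per2 and the co-chaperone Dnajb1 rose. Of 8531 genes tested, 78 (0.914%) passed limma at an adjusted p below 0.05, the threshold used throughout, with p-values adjusted by Benjamini-Hochberg over all genes tested. Of these, 45 (0.527%) rose and 33 (0.387%) fell, by between 0.36 and 1.69 in size. All 78 had their 3 methamphetamine arrays wholly above or below the 3 saline arrays, a separation seen in 17.2% of all genes tested. Saline arrays 4 and 5, of the other hybridisation batch, lay on average above saline 1 to 3 for 42 of the 45 rises. They lay below for 25 of the 33 falls, while 52.7% of all genes lay above and the rest did not. Saline 1 to 3 thus read lower than saline 4 and 5 for nearly every gene that rose. Calling genes by their difference from saline 1 to 3 favours both counts, and the share among all genes apart from saline 1 to 3 was not counted. The methamphetamine arrays lay above all 5 saline arrays for 20 of the 45 rises (3.12% of all genes) and below them for 25 of the 33 falls (2.84% of all genes). The called genes were already apart from saline 1 to 3, and among all genes apart in that way the counts were 266 of 864 above and 242 of 605 below. The part of the batch in these differences was not tested. The median difference of all genes was 0.02.

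**Figure D1:**
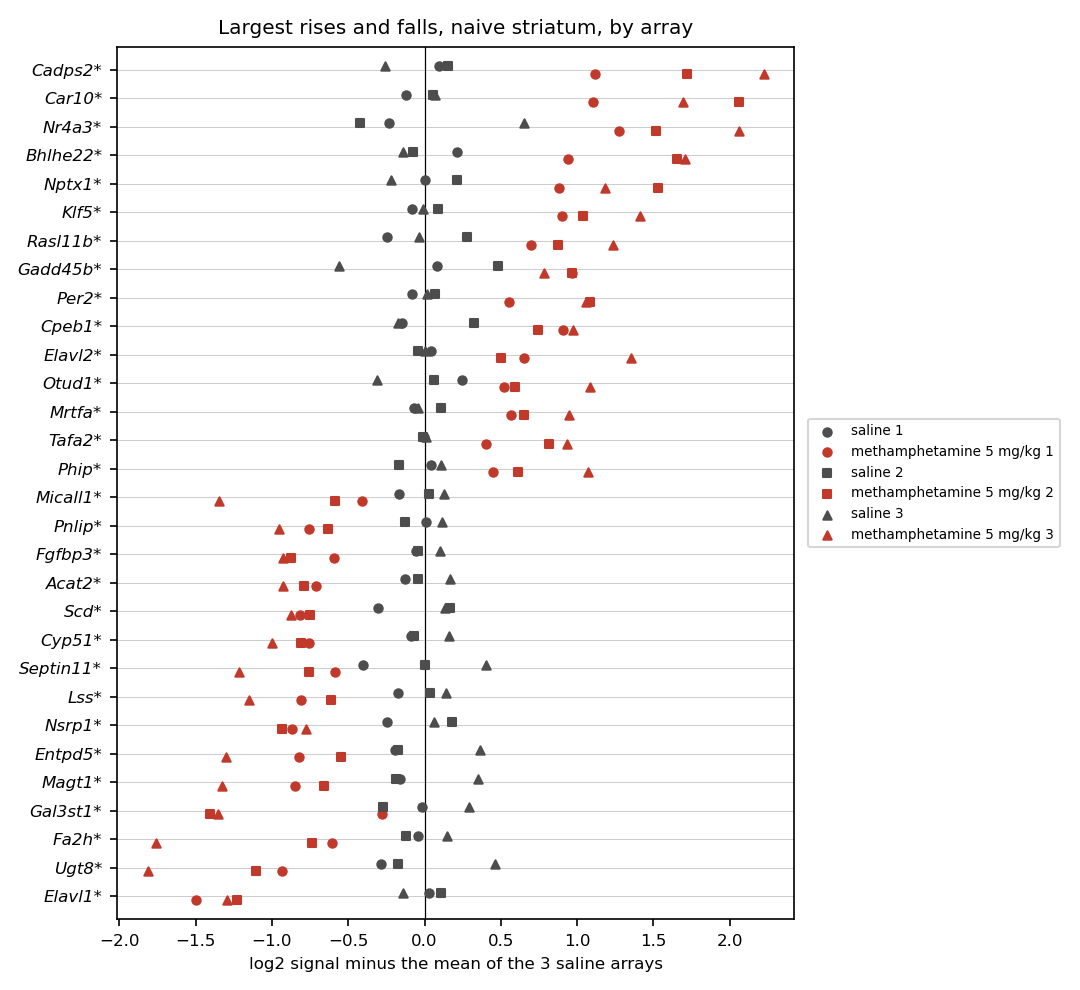
Log2 signal of each array minus the mean of saline arrays 1 to 3 (x axis) for the 15 largest rises and 15 largest falls (y axis), with grey for saline, red for methamphetamine 5 mg/kg, and circle, square and triangle for arrays 1, 2 and 3. An asterisk marks an adjusted p below 0.05, which all 30 have. Every red point lies outside the range of the grey ones, and differences run from 1.69 for Cadps2 to -1.34 for Elavl1.

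The calls rested on a spread shared by all striatal groups (31 arrays), and on few arrays. A fit of the 6 arrays alone called 1 gene (Elavl1, limma adjusted p = 0.024), and a fit of the 11 naive arrays of the same hybridisation batch called 0, with 1001 genes at an unadjusted p below 0.05. With the Gapdh ratio as a covariate 1 gene was called (Dnajb1, limma adjusted p = 0.034), though all 78 kept their sign and the median gene kept 84.3% of its rise or 83.9% of its fall. Leaving out methamphetamine array 3 left 21 genes called (0.246%), of which 13 were among the 78, and leaving out saline arrays 1, 2 or 3 left 32, 18 and 10. Leaving out methamphetamine array 1 gave 195. Cadps2, Klf5, Mrtfa, Phip, Dnajb1 and Acss2 passed in each of the 6 fits that left out 1 array, Nr4a3, Lss and Ugt8 in 3 of them, Per2 in 1 and Elavl1 in 0.

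The sterol list held 25 genes, of which 20 were tested. Of these, 5 fell (Lss, Cyp51, Acat2, Dhcr7 and Sqle) and 0 rose, while 0.387% of all genes fell. Of the 20 differences 18 were below 0, and the median was -0.46 against 0.02 for all genes. On 15 of the 20 genes every methamphetamine array read below every saline array, against 7.09% of all genes tested, and on 11 they also lay below saline arrays 4 and 5, against 2.84%. The list's median on methamphetamine arrays 1, 2 and 3 was -0.40, -0.39 and -0.55, so that the decrease was present on every array. The list was chosen with this decrease already known.

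Upstream sequence is shown for 3 members because the list is known to share promoter elements. The 250 bases before the annotated start are from RefSeq, build GRCr8, written 5′ to 3′ on the gene's strand. Lss lies on the minus strand at chr20:12118231-12118480, Idi1 on the minus strand at chr17:66547525-66547774 and Cyp51 on the plus strand at chr4:30991443-30991692. Capitals mark CCAAT boxes in Lss and Idi1, which read ATTGG on this strand, and the cAMP response element core TGACGT in Cyp51.
Lss: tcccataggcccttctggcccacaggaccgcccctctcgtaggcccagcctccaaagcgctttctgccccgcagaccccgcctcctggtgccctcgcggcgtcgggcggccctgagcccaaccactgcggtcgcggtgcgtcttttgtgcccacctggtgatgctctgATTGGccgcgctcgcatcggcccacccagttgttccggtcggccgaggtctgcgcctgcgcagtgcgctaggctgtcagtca
Idi1: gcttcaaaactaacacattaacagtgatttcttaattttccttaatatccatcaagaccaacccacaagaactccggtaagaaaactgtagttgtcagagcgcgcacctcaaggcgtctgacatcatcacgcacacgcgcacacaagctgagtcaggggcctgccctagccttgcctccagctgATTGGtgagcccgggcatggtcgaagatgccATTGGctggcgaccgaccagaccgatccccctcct
Cyp51: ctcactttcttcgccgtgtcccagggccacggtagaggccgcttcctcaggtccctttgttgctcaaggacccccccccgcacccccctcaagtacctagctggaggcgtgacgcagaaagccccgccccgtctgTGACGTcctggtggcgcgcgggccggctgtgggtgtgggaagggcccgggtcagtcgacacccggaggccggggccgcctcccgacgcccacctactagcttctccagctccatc

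Counted from the start, with -1 the base before it, the box of Lss lay at -82 to -78, those of Idi1 at -66 to -62 and -35 to -31, and the element of Cyp51 at -115 to -110. CCAAT was present on either strand in 13 of the 16 sterol promoters found (81.2%), and in 35.9% of the 7164 promoters of tested genes. The printed window of Cyp51 held no CCAAT on either strand. TGACGT was present in 3 of the 16 (18.8%) against 11.5%, CACGTG in 2 (12.5%) against 8.68%, and the sterol element TCACNCCAC in 0 of 16 against 0.921%. These counts describe letters in a 250-base window and say nothing of which factor was bound.

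Cyp51, lanosterol demethylase, had the smallest p of the list. It read 12.06, 12.08 and 12.31 in saline and 11.39, 11.34 and 11.15 in methamphetamine arrays, a decrease of -0.85 ± 0.16 (SE, n = 3 and 3; limma adjusted p = 0.0077). The highest treated array lay below the lowest saline array, and a dimmer probe set for the gene gave -0.63 (adjusted p = 0.053 by limma over all probe sets). Lss, which closes the sterol rings, read 9.17, 9.38 and 9.49 against 8.54, 8.73 and 8.19, a difference of -0.86 ± 0.18 (limma adjusted p = 0.022). Its 3 treated arrays were lowest of the 6, and lay below saline arrays 4 and 5 (9.04 and 8.89) too. A second, dim Lss probe set gave 0.14 (limma adjusted p = 0.90), so the call rests on the brighter one.

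Sqle, the squalene epoxidase step before Lss, read 9.82, 9.68 and 9.89 in saline and 9.24, 9.24 and 8.89 in methamphetamine arrays (-0.67 ± 0.15, limma adjusted p = 0.033). Dhcr7, which makes cholesterol from 7-dehydrocholesterol, read 9.82, 9.73 and 9.63 against 9.19, 9.19 and 8.61 (-0.73 ± 0.18, limma adjusted p = 0.048). For both, array 3 was lowest while arrays 1 and 2 agreed closely, and the groups did not overlap. Acat2, the cytosolic thiolase that supplies acetoacetyl-CoA, read 9.68, 9.76 and 9.97 against 9.09, 9.01 and 8.87 (-0.81 ± 0.20, limma adjusted p = 0.044).

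Other members missed the threshold with groups that did not overlap, among them Idi1, Sc5d and Insig1. Idi1, the isopentenyl diphosphate isomerase, differed by -0.74 and the sterol desaturase Sc5d by -0.91. Insig1, which holds the SREBP complex in the endoplasmic reticulum and is itself an SREBP target, differed by -0.60, and all 3 had a limma adjusted p of 0.052. Srebf2, which encodes SREBP2 itself, differed by 0.01 and Pmvk, phosphomevalonate kinase, by 0.04. The signals of the 20 genes summed to between 25440 and 29590 in the saline arrays and 17200 and 19070 in the methamphetamine arrays. With the Gapdh ratio as a covariate the list's median was -0.48 and 0 of its genes were called. Without saline array 1, 2 or 3 the number called was 2, 1 and 0, and without methamphetamine array 3 it was 2, with list medians from -0.46 to -0.37. Acss2, acetyl-CoA synthetase, was no list member and was picked after its values were seen: it fell by 0.71 (limma adjusted p = 0.0032).

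**Figure D2:**
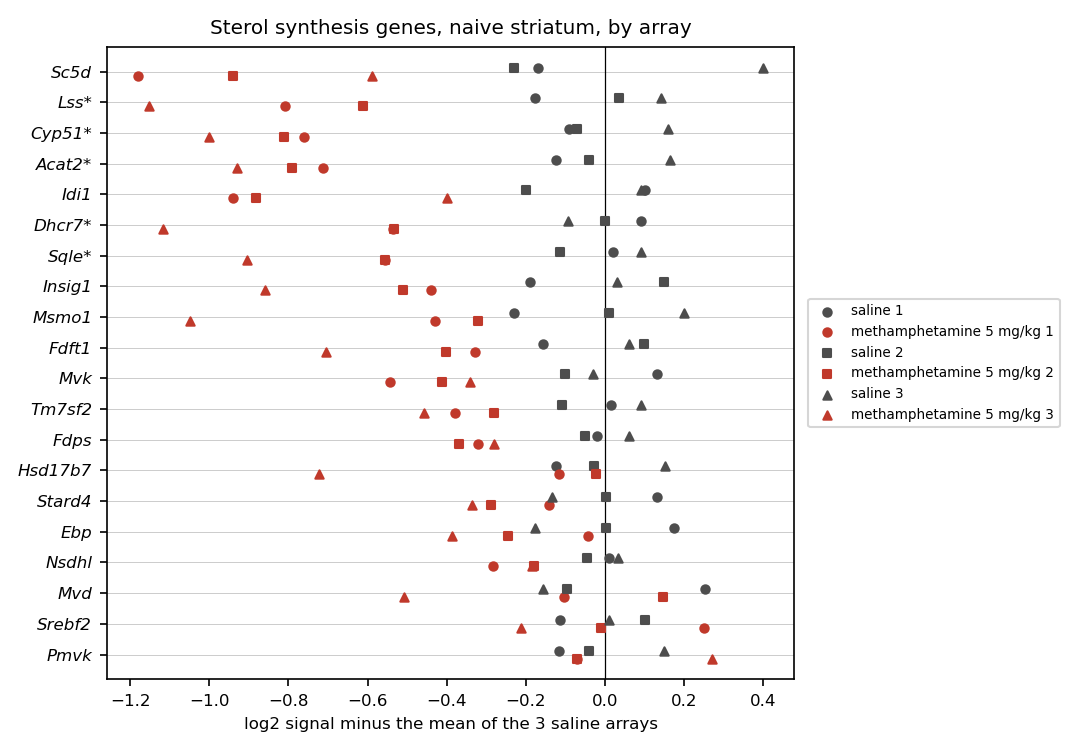
Log2 signal of each array minus the mean of saline arrays 1 to 3 (x axis) for the 20 sterol synthesis genes tested (y axis), with grey for saline, red for methamphetamine 5 mg/kg, and circle, square and triangle for arrays 1, 2 and 3. The 5 genes with an asterisk have an adjusted p below 0.05. In 15 genes all red points lie left of all grey ones, and Srebf2 (0.01) and Pmvk (0.04) are the only 2 with a mean difference above 0.

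Among enzymes of fatty acid and sphingolipid synthesis, Scd and Elovl1 fell. Of 22 genes tested in the sphingolipid and fatty acid list 2 fell and 0 rose (0.387% of all genes fell). The list's median was -0.25, and 8 members lay wholly below saline (36.4%, against 7.09% of all genes). Scd, the stearoyl-CoA desaturase, read 8.21, 8.69 and 8.65 in saline and 7.70, 7.77 and 7.64 in methamphetamine arrays (-0.81 ± 0.20, limma adjusted p = 0.048), with the 3 treated arrays close together. Elovl1, which elongates the very long chains of sphingolipids, differed by -0.57 (limma adjusted p = 0.044). Fads1, the delta-5 desaturase, differed by -0.59 (limma adjusted p = 0.052), while the fatty acid synthase Fasn differed by -0.11 (limma adjusted p = 0.75).

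Of 21 oligodendrocyte and myelin genes tested 2 fell and 0 rose (0.387% of all genes fell), with 7 members wholly below saline (33.3%, against 7.09% of all genes). Ugt8 makes galactosylceramide, the main myelin glycolipid. It read 9.87, 9.99 and 10.62 in saline and 9.23, 9.05 and 8.35 in methamphetamine arrays (-1.28 ± 0.27, limma adjusted p = 0.020). Fa2h, which hydroxylates the fatty acids of these lipids, read 10.08, 10 and 10.27 against 9.52, 9.38 and 8.36 (-1.03 ± 0.20, limma adjusted p = 0.016). In both, array 3 was by far the lowest, and arrays 1 and 2 still lay below all of saline 1 to 3, but the saline 4 value of Ugt8 in the other batch was 9.08. Gal3st1, which sulphates galactosylceramide, fell as well (a difference of -1.014, limma adjusted p = 0.044), with array 1 (8.09) level with the lowest saline array (8.10). Saline arrays 4 and 5 averaged 7.91 for Gal3st1, below methamphetamine array 1.

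The structural myelin genes did not pass: Mbp differed by 0.23 and Mobp by 0.05, while Mag differed by -0.59 (limma adjusted p = 0.22). The list's median was -0.10, -0.29 and -0.89 on methamphetamine arrays 1, 2 and 3, so its overall median of -0.42 leaned on array 3 and was -0.17 without it. The summed signal of the list was 122700 to 145800 in saline and 116400 to 129600 in methamphetamine arrays, which overlap. Whether a different share of white matter in the dissections moved with these genes was not tested.

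Among the rises, several genes were ones that the prefrontal cortex expresses more strongly than the striatum. In the pretreated saline rats, which the comparison did not use, 8 of the 45 risers (17.8%) were over 1 higher in prefrontal cortex than in striatum, against 2.50% of all genes tested, and those 8 were among the 15 largest rises. Cadps2, a priming factor for dense-core vesicles, read 7.68, 7.74 and 7.33 in saline and 8.70, 9.31 and 9.81 in methamphetamine arrays (1.69 ± 0.28, limma adjusted p = 0.0041). It read 9.18 and 8.77 in saline arrays 4 and 5, inside the range of the treated arrays. Car10, a carbonic anhydrase-related protein, read 6.52, 6.70 and 6.71 against 7.75, 8.71 and 8.34 (1.62 ± 0.40, limma adjusted p = 0.045). Saline arrays 4 and 5 read between 8.048 and 8.265 for Car10, also inside the treated range.

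Of the 11 cortical neuron markers tested 2 rose and 0 fell (0.527% of all genes rose). Wholly above saline lay 6 of them (54.5%, against 10.1% of all genes). Nptx1, a synaptic pentraxin, read 10.49, 10.70 and 10.27 in saline and 11.37, 12.02 and 11.67 in methamphetamine arrays (1.20 ± 0.27, limma adjusted p = 0.028). Bhlhe22, a transcription factor of cortical projection neurons, read 7.64, 7.35 and 7.29 against 8.37, 9.08 and 9.14 (1.44 ± 0.36, limma adjusted p = 0.048). Saline arrays 4 and 5 read 11.41 to 11.52 for Nptx1 and 8.62 to 8.74 for Bhlhe22, inside the treated range for both. Slc17a7, the vesicular glutamate transporter that defines cortical neurons, read 7.08, 7.31 and 7.34 against 7.93, 8.69 and 7.83, below the 10.14 to 11.42 of prefrontal arrays. Its difference of 0.90 did not pass (limma adjusted p = 0.37).

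The summed signal of the marker list was 15570 to 18400 in saline and 19100 to 27280 in methamphetamine arrays, with list medians of 0.24, 1.18 and 0.97 on arrays 1, 2 and 3. The part of adjoining cortex in these rises was not tested. Of 9 interneuron markers 0 passed, where 0.914% of all genes did. Wholly above saline lay 7 of them (77.8%, against 10.1% of all genes), among them Pvalb (1.06, limma adjusted p = 0.096) and Sst (0.54, limma adjusted p = 0.23).

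Of 21 activity-regulated genes tested, 2 rose and 0 fell (0.527% of all genes rose). Nr4a3, an orphan nuclear receptor induced by dopamine and cAMP signals, read 7.76, 7.57 and 8.64 in saline and 9.26, 9.51 and 10.05 in methamphetamine arrays (1.62 ± 0.33, limma adjusted p = 0.020). All treated arrays lay above all saline arrays, with saline 3 well above the other saline arrays. A second Nr4a3 probe set gave 1.20 (limma adjusted p = 0.028), and another, below the filter on dim signals and not tested, gave -0.47. Nr4a3 was 1.43 higher in prefrontal cortex than in striatum in pretreated saline rats, and so was 1 of the 8 cortex-rich rises. Gadd45b, a stress and activity gene linked to DNA demethylation, read 8.03, 8.43 and 7.38 against 8.91, 8.91 and 8.73 (0.91 ± 0.22, limma adjusted p = 0.045). The naive saline arrays of the other hybridisation batch averaged 8.77 for Gadd45b, inside the treated range. Nr4a2, the relative of Nr4a3, differed by 1.46 but did not pass (limma adjusted p = 0.12).

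The classical immediate early genes did not pass at this time, a day after the last session. Fos differed by 0.17, Arc by -0.20, Egr1 by 0.12 and Nr4a1 by 0.12, with limma adjusted p-values from 0.76 to 0.89. Fos ranged from 8.89 to 10.45 among the saline arrays and from 9.88 to 10.25 among the methamphetamine arrays. The sign of the Fos, Arc and Nr4a1 differences turned when single arrays were left out.

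Klf5, a zinc finger factor of growth and lipid metabolism, read 8.87, 9.04 and 8.94 in saline and 9.85, 9.99 and 10.36 in methamphetamine arrays (1.12 ± 0.18, limma adjusted p = 0.0041). All treated arrays lay above saline arrays 1 to 3 and above saline arrays 4 and 5 (9.52 and 9.42). Of the dimmer probe sets for Klf5, 1 gave 1.25 (limma adjusted p = 0.017) and another 0.62 (limma adjusted p = 0.33). Otud1, a deubiquitinase, Mrtfa, the actin-sensing partner of SRF, and Phip, a bromodomain protein, rose by 0.73, 0.72 and 0.72, with limma adjusted p-values of 0.0055, 0.0054 and 0.0051. Other probe sets for Phip gave 0.14 (limma adjusted p = 0.69) and 0.42 (limma adjusted p = 0.13).

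Of 19 clock genes tested 1 rose (0.527% of all genes rose). Per2, a core repressor of the clock, read 9.69, 9.84 and 9.79 in saline and 10.33, 10.86 and 10.83 in methamphetamine arrays (0.90 ± 0.21, limma adjusted p = 0.039). It read 9.42 and 9.54 in saline arrays 4 and 5, so that all treated arrays also lay above those. Per1 differed by 0.64 without overlap (limma adjusted p = 0.15), Dbp, a clock output factor, by -0.23 and Nr1d2, a REV-ERB repressor, by 0.11. The time of day at which each rat was killed was not used here.

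Of 18 glucocorticoid-responsive genes 0 passed, where 0.914% of all genes did, so this count does not set the list apart. Fkbp5, a feedback regulator of the glucocorticoid receptor, differed by 0.52 and Tsc22d3, or GILZ, by 0.50, both without overlap (limma adjusted p = 0.14 and 0.23). Sgk1 differed by 0.39, with array 1 at 11.93 and arrays 2 and 3 at 10.99 and 10.47, against a saline range of 10.56 to 10.98, so that arrays 2 and 3 lay just above and just below that range.

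The cytosolic chaperone list held 17 tested genes, of which 2 rose and 0 fell (0.527% of all genes rose). Dnajb1, the HSP40 that loads clients onto HSP70, read 10.12, 10.14 and 10.30 in saline and 10.96, 10.94 and 10.80 in methamphetamine arrays (0.72 ± 0.11, limma adjusted p = 0.0032), the smallest p of the comparison. The treated arrays lay close together, and saline arrays 4 and 5 (10.22 and 10.27) fell inside the range of saline 1 to 3. Its dimmer probe set gave 0.52 (limma adjusted p = 0.15). Chordc1, an HSP90 co-chaperone, read 10.02, 10.02 and 10.18 against 10.57, 10.58 and 10.86 (0.59 ± 0.11, limma adjusted p = 0.012).

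The promoter of Dnajb1 is printed because heat shock elements mark the list. It lies on the minus strand at chr19:41431142-41431391 (RefSeq, GRCr8), and capitals mark an inverted pair of the element, searched as GAANNTTC, at -11 to -4.
Dnajb1: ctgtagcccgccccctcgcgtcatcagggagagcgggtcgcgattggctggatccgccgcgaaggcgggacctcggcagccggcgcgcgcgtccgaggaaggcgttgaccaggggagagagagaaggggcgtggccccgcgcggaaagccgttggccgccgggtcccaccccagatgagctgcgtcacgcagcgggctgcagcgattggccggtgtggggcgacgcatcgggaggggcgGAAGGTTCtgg

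This pair was found in 8 of the 14 chaperone promoters (57.1%), in 4.40% of the 7164 promoters of tested genes and in 0 of the 16 sterol promoters. The chaperone list had a median of 0.17, with Hsph1 at 0.08 and Hsp90ab1 at -0.01, and 5 members lay wholly above saline (29.4%, against 10.1% of all genes). Of 19 chaperones and stress genes of the endoplasmic reticulum, 1 rose (0.527% of all genes rose). This was Ddit3, the stress factor CHOP, which read 9.19, 8.99 and 9.33 in saline and 9.51, 9.86 and 9.87 in methamphetamine arrays (0.58 ± 0.12, limma adjusted p = 0.020). Hspa5, the chaperone BiP, read 12.13, 12.12 and 12.32 against 12.80, 12.93 and 12.57, a difference of 0.58 without overlap that missed the threshold (limma adjusted p = 0.052).

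The largest fall was that of Elavl1, which encodes the RNA-stabilising protein HuR. It read 10.64, 10.72 and 10.47 in saline and 9.11, 9.38 and 9.32 in methamphetamine arrays (-1.34 ± 0.32, limma adjusted p = 0.044), with no overlap between the groups. The other probe sets of Elavl1 gave -0.38 and -0.54 (limma adjusted p = 0.14 and 0.44), so the size of the fall rests on 1 probe set. The Elavl1 call was lost whenever any 1 array was left out (limma adjusted p from 0.060 to 0.14) and with the Gapdh covariate (limma adjusted p = 0.16). Elavl2, the neuronal relative, rose: it read 10.03, 9.95 and 9.99 against 10.64, 10.49 and 11.34 (0.83 ± 0.18, limma adjusted p = 0.022), and further probe sets for Elavl2 gave 0.74 (limma adjusted p = 0.025) and 0.31 (limma adjusted p = 0.66). The naive saline arrays of the other hybridisation batch averaged 10.84 for Elavl2, inside the treated range. The prefrontal level of Elavl2 was 1.06 above its striatal level in pretreated saline rats, which places it among the cortex-rich rises.

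Further named falls were Pnlip, annotated as pancreatic lipase (-0.78, limma adjusted p = 0.028), and Dlgap3, a postsynaptic scaffold of corticostriatal synapses (-0.72, limma adjusted p = 0.030). Saline arrays 4 and 5 averaged 9.16 for Dlgap3, level with methamphetamine arrays 1 and 2 (9.17 and 9.16). Pnlip read 9.38, 9.24 and 9.48 in saline and 8.61, 8.73 and 8.41 in methamphetamine arrays, and 9.28 and 9.38 in saline arrays 4 and 5, so the treated arrays were the lowest of all 8. Among synaptic and guidance genes, Rab3a, a vesicle GTPase, rose by 0.48 (limma adjusted p = 0.020), the ephrin receptor Epha3 by 0.62 and the semaphorin Sema3e by 0.54 (limma adjusted p = 0.028 for both). A second Rab3a probe set gave -0.07 (limma adjusted p = 0.90). Saline arrays 4 and 5 averaged 11.06 for Sema3e and 7.56 for Epha3, inside the treated range for both. Rab3a was 1 of 19 vesicle genes, and Epha3 and Sema3e were 2 of 27 guidance genes tested (0.527% of all genes rose).

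The genes that define striatal projection neurons did not pass. Drd1 differed by 0.22, Drd2 by -0.15 and the adenosine receptor Adora2a by -0.01, with limma adjusted p-values of 0.38, 0.60 and 0.98. Dimmer probe sets gave -0.64 for Adora2a and -0.09 for Drd1 (limma adjusted p = 0.096 and 0.89 over all probe sets). The 95% interval of the Drd2 difference ran from -0.40 to 0.11. The opioid peptide precursors Penk and Pdyn differed by 0.04 and 0.12, the substance P precursor Tac1 by 0.05 and the phosphatase inhibitor Ppp1r1b, or DARPP-32, by -0.20. Of 8 dopamine genes, 23 of striatal cAMP signalling and 25 projection neuron markers 0 passed. Only 0.914% of all genes passed, so a count of 0 in lists of this size does not set them apart from other genes. Cartpt, the precursor of the CART peptide, read 9.33, 9.69 and 9.01 in saline and 10.18, 10.20 and 10.41 in methamphetamine arrays. This difference of 0.92 was without overlap but did not pass (limma adjusted p = 0.077). The naive saline arrays of the other hybridisation batch averaged 10.31 for Cartpt, inside the treated range.

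The 3 methamphetamine arrays were unequal. Arrays 1 and 2 correlated at r = 0.989 across genes, as closely as saline pairs did (0.984 to 0.988), whereas array 3 correlated with them at 0.952 and 0.951. Against the saline mean, 13 genes lay over 1 higher and 9 over 1 lower on array 1, 39 and 13 on array 2, and 91 and 182 on array 3. The median SD per gene was 0.209 among the methamphetamine arrays, 0.123 among saline 1 to 3 and 0.0839 between methamphetamine arrays 1 and 2 alone. In 283 genes array 3 lay over 1 away from the mean of arrays 1 and 2 while these lay within 0.5 of each other, and the same count for array 1 or array 2 was 9 each.

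Array 3 departed in whole gene groups. The median of 35 cytosolic ribosomal protein genes was 0.00 and 0.04 on arrays 1 and 2 and 0.78 on array 3, and that of 62 oxidative phosphorylation genes was -0.08, -0.07 and 0.52. The 12 endothelial and mural markers went the other way, at -0.14, -0.08 and -1.09. Polr2k, a short RNA polymerase subunit gene, read 10.72 and 10.73 on arrays 1 and 2 and 12.21 on array 3, whereas Cit, the citron kinase gene, read 10.79, 10.61 and 8.16 and Myrf, the myelin transcription factor gene, 9.98, 9.91 and 8.26. Array 3 also had the highest Gapdh ratio of the 6. The part of RNA quality in its profile was not tested, and with array weights estimated by limma it received 0.139 against 1.90 and 1.31 for arrays 1 and 2.

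**Figure D3:**
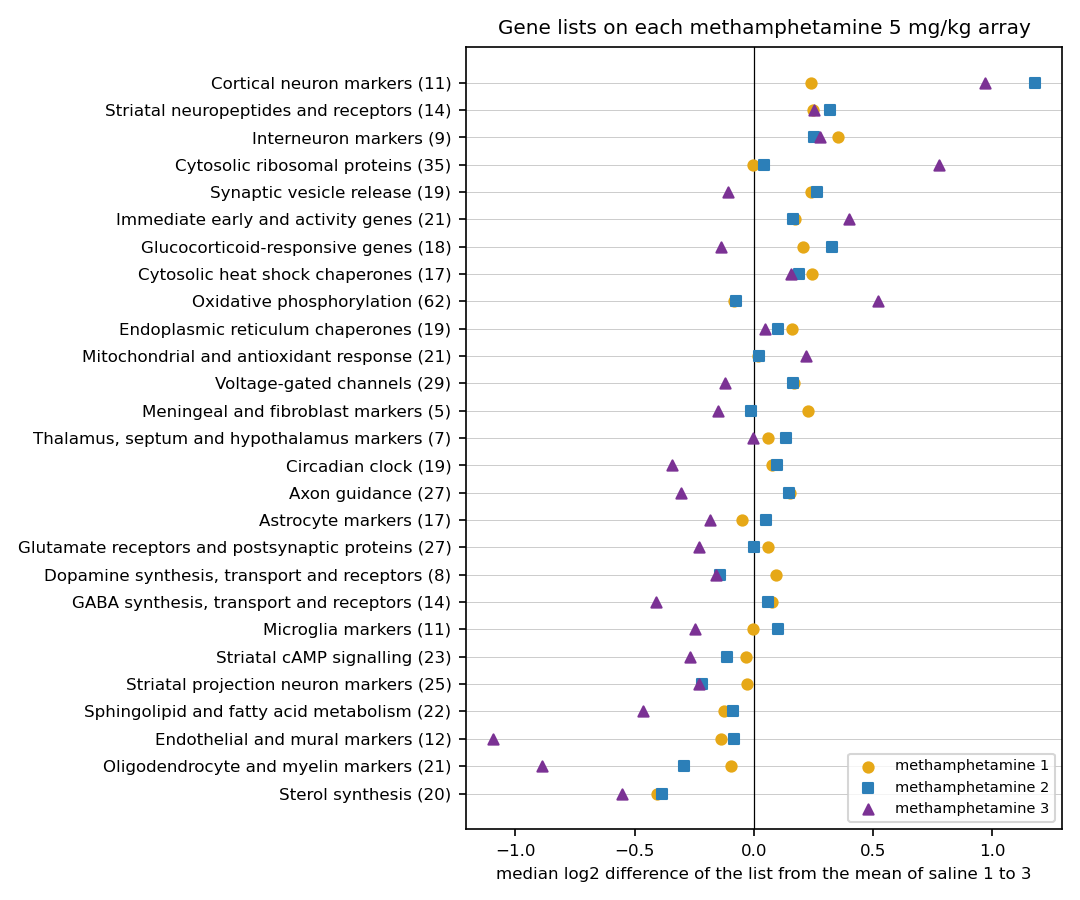
Median log2 difference from the mean of saline arrays 1 to 3 (x axis) of each gene list with at least 5 tested members (y axis, number tested in brackets), shown for methamphetamine arrays 1 (circle), 2 (square) and 3 (triangle). The 3 arrays lie together for sterol synthesis (-0.40, -0.39 and -0.55) and part for ribosomal proteins (0.00, 0.04 and 0.78) and endothelial markers (-0.14, -0.08 and -1.09).

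The dose comparison asked whether 5 mg/kg differed from 1.25 mg/kg in conditioning. The array labelled methamphetamine (1.25 mg/kg) sample 1 carried a cortical profile and was left out, so the lower dose rests on 2 arrays. Of 8531 genes 0 passed limma (0%), with 258 (3.02%) at an unadjusted p below 0.05. The smallest p-values belonged to Eid1 (0.90 higher at 5 mg/kg), Msx1 (0.82 higher) and Hpcal1 (-0.67), with limma adjusted p-values from 0.85 to 1.00. Against saline 1 to 3, they differed by 0.24, -0.01 and -0.39 at 5 mg/kg. At 1.25 mg/kg they differed by -0.65, -0.82 and 0.27. Cyp51 differed by -0.22 (95% interval -0.58 to 0.14), Klf5 by 0.27 (-0.15 to 0.69) and Dnajb1 by 0.23 (-0.02 to 0.47). All 3 intervals include 0, and they do not show that the doses act alike.

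Both lower-dose groups of the same hybridisation batch share saline arrays 1 to 3 with the 5 mg/kg group, and their values are given side by side only. Cyp51 read 11.59 and 11.44 at methamphetamine 1.25 mg/kg and 10.89, 11.49 and 11.31 at amphetamine 1.25 mg/kg, all below saline. Dnajb1 read 10.66 and 10.69, and 10.70, 10.65 and 11.02 in these groups, and Klf5 9.66 and 9.94, and 9.73, 9.97 and 10.33. The median of the 20 sterol genes was -0.34 at methamphetamine 1.25 mg/kg, where 0 genes in all were called, and -0.62 at amphetamine 1.25 mg/kg. There 5 sterol genes fell, against 0.375% of all genes. Elavl1 differed by -1.08 at methamphetamine 1.25 mg/kg and by -0.06 at amphetamine 1.25 mg/kg, with limma adjusted p-values of 0.36 and 0.97.

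**Figure D4:**
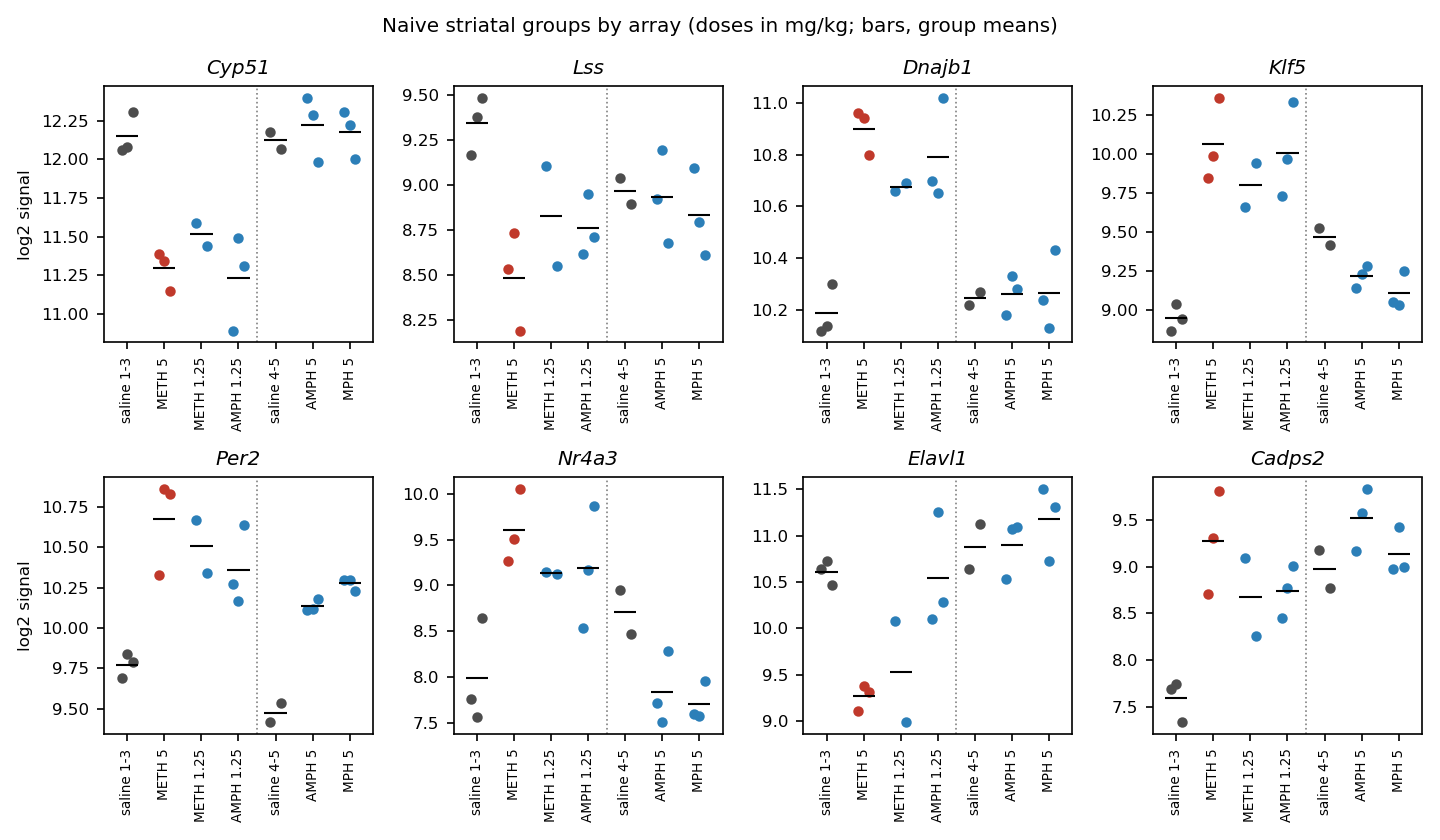
Log2 signal (y axis) of 8 genes on each naive striatal array, by group (x axis, doses in mg/kg), with short bars at group means; METH is methamphetamine, AMPH amphetamine and MPH methylphenidate. A dotted line divides the batches with saline 1 to 3 (left) and saline 4 and 5 (right), and the methamphetamine 1.25 mg/kg array of cortical profile is not drawn. Cyp51 reads 11.15 to 11.39 at methamphetamine 5 mg/kg and 11.98 to 12.40 at amphetamine 5 mg/kg.

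Methamphetamine differs from amphetamine by a methyl group on the nitrogen, and this was the only pair of compounds compared at a matched conditioning dose of 5 mg/kg and a matched infusion dose. Each drug was set against the saline arrays of its own hybridisation batch, so that a difference between batches in how saline was read enters the comparison and cannot be told apart from the drug. Of 8531 genes 2 passed limma (0.0234%), with 760 (8.91%) at an unadjusted p below 0.05. Fam13b read 9.41, 9.54 and 9.40 in saline 1 to 3 and 9.71, 9.89 and 9.86 after methamphetamine, and 10.18 and 10.07 in saline 4 and 5 and 9.79, 9.70 and 9.72 after amphetamine. The effects differed by 0.76 ± 0.14 (limma adjusted p = 0.031), with the saline groups themselves further apart than the drug groups. For methamphetamine minus saline 1 to 3 this probe set gave 0.37. A second Fam13b probe set of similar brightness gave -0.15 (limma adjusted p = 0.66 over all probe sets).

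Hbb, beta globin, differed by -3.16 ± 0.52 (limma adjusted p = 0.016). It moved by 0.09 with methamphetamine, while saline arrays 4 and 5 read 10.54 and 9.48 against 12.97, 13.41 and 13.37 after amphetamine. The low values were thus those of the saline arrays 4 and 5, and blood content was not tested.

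No sterol gene passed between the drugs. The median of the 20 genes was -0.46 after methamphetamine and 0.09 after amphetamine at 5 mg/kg, and of their differences -0.62, with 0 called and 11 at an unadjusted p below 0.05. Cyp51 read 12.40, 12.29 and 11.98 after amphetamine against 12.18 and 12.07 in its saline arrays, and the effects differed by -0.95 (95% interval -1.43 to -0.47, limma adjusted p = 0.26). Nr4a3 was 2.49 (1.47 to 3.51) and Klf5 1.37 (0.81 to 1.93) higher in the methamphetamine comparison, both with a limma adjusted p of 0.069. Dnajb1 differed by 0.70 (0.37 to 1.03, limma adjusted p = 0.18). For Per2 the difference was 0.24, with an interval from -0.41 to 0.89, and it moved by 0.66 after amphetamine.

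The comparison with pretreated rats asked whether a week of earlier methamphetamine injections changed the response. The pretreated saline rats have no drug dose in the labels, so the pretreated effect holds the injection week and the later drug together. The effects differed for 29 of 8531 genes (0.34%) by limma, of which 19 (0.223%) were higher in naive rats and 10 (0.117%) lower, with adjusted p-values from 0.041 to 0.050. In all 29 genes the difference from saline had opposite signs in the 2 cohorts. Choosing genes by a large difference between the 2 effects favours opposite signs, and their share over all genes was not counted. For 9 of the 29 the naive effect itself had passed (0.914% of all genes). For 7 the pretreated effect had passed (0.914% of all genes rose and 0.832% fell there). Both effects enter the difference by which the 29 were chosen, which favours such an overlap.

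Hspa5, the chaperone BiP, differed by 0.58 in naive and -0.49 in pretreated rats, and the effects differed by 1.07 ± 0.21 (limma adjusted p = 0.041). In pretreated rats it read 12.69, 12.54 and 12.78 in saline and 12.49, 11.78 and 12.27 in methamphetamine arrays, so the saline levels differed between cohorts too (means of 12.19 and 12.67). Otud1 differed by 0.73 and -0.26 (difference 0.99, limma adjusted p = 0.041), Slc5a7, the choline transporter of cholinergic neurons, by 0.48 and -0.56, and Dock3, a neuronal guanine exchange factor, by 0.80 and -0.60. On the other side stood Gfap, the astrocyte filament (-0.74 and 0.50), Cebpd, an inflammatory and glucocorticoid-induced factor (-0.53 and 1.36), and Angptl4, a lipoprotein lipase inhibitor (-0.84 and 1.08).

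Angptl4 read 8.02, 8.04 and 8.20 in naive saline and 7.57, 7.21 and 6.95 in naive methamphetamine arrays, against 7.69, 7.70 and 7.59 and then 7.94, 8.75 and 9.53 in pretreated rats. In both cohorts the groups did not overlap. Gfap read 11.69, 11.94 and 11.87 in naive saline and 11.67, 11.04 and 10.57 in naive methamphetamine arrays, and its naive and pretreated saline means were 11.83 and 10.85. The part of such differences between saline levels in the calls was not tested. The 29 calls fell to 0 without naive saline array 2 or 3, or with quantile normalization, and rose to 76 without methamphetamine array 3.

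Some of the leading genes were also called in pretreated rats. Per2 rose by 0.91 there (limma adjusted p = 0.027), and the difference between cohorts was -0.01 (95% interval -0.62 to 0.60). Sqle and Dhcr7 fell by 0.67 and 0.77 in pretreated rats (limma adjusted p = 0.027 and 0.028), with 2 of the 20 sterol genes called against 0.832% of all genes, and cohort differences of -0.01 (-0.45 to 0.44) and 0.04 (-0.48 to 0.57). Lss differed by -0.02 there, and its cohort difference of -0.84 did not pass (limma adjusted p = 0.13). Fkbp5 and Tsc22d3, which did not pass in naive rats, rose by 0.94 and 0.93 in pretreated rats (limma adjusted p = 0.015 and 0.021).

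**Figure D5:**
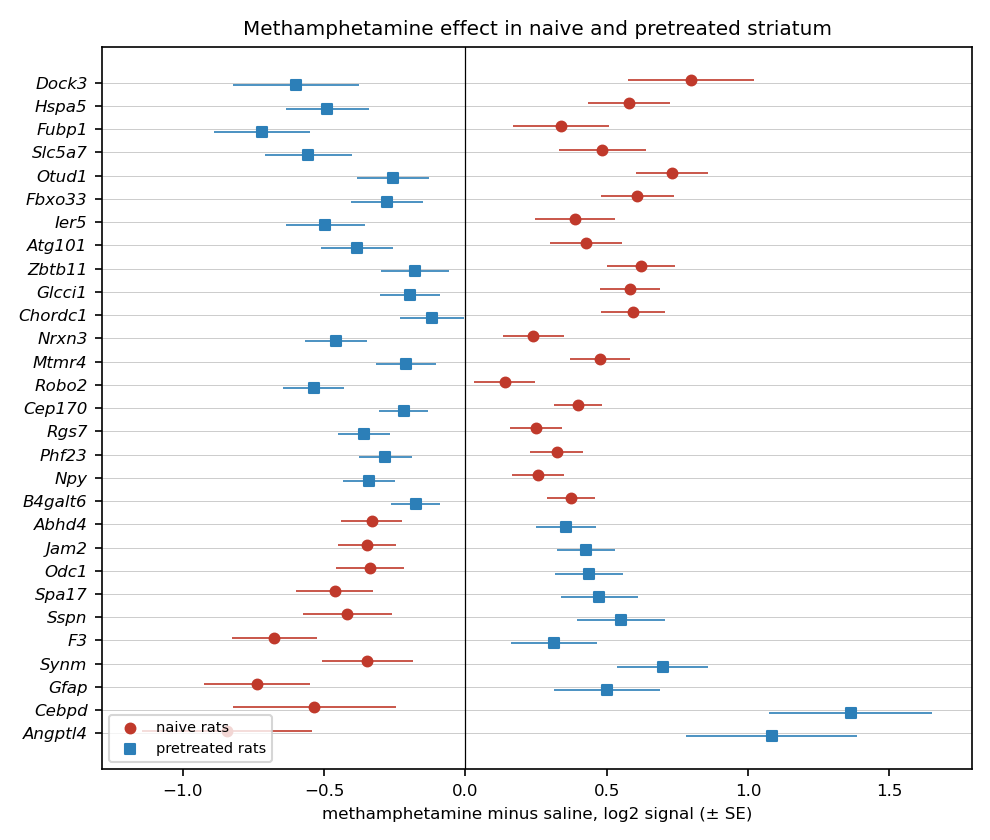
Methamphetamine minus saline in log2 signal with standard errors (x axis) for the 29 genes whose effects differed between cohorts (y axis), for naive rats (red circles) and pretreated rats (blue squares). Each gene has its points on opposite sides of 0, from Dock3 (0.80 and -0.60) to Angptl4 (-0.84 and 1.08).

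The last comparison set the striatum against the prefrontal cortex of naive rats given the same treatment. Of 8531 genes 0 passed limma for a difference of effects (0%), with 389 (4.56%) at an unadjusted p below 0.05. The smallest p-values were those of Car10 (1.76), Cadps2 (1.29) and Stk32c (0.54), all at a limma adjusted p of 0.43. Cadps2 read 10.45, 10.25 and 10.41 in prefrontal saline and 10.91, 10.69 and 10.71 in prefrontal methamphetamine arrays, above every striatal array of the comparison. Elavl1 read 10.37, 10.52 and 10.54 in prefrontal saline and 9.31, 8.55 and 9.46 in prefrontal methamphetamine arrays, a difference of -1.37 (limma adjusted p = 0.099). Its effects in the 2 regions differed by 0.03, with a 95% interval from -0.83 to 0.88. Per2 differed by 0.67 and Cyp51 by -0.19 in the prefrontal cortex (limma adjusted p = 0.36 and 0.82), and the 95% interval of the Cyp51 difference between regions ran from -1.06 to -0.27 (limma adjusted p = 0.51). Of the 20 sterol genes 19 were below 0 in the prefrontal cortex (median -0.23), as were 17 of the 21 myelin genes (median -0.34). The median of all genes there was 0.0007. Dhcr7 differed by -0.48, Sqle by -0.37, Fa2h by -0.87 and Ugt8 by -0.73, with limma adjusted p-values from 0.099 to 0.50.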

How the data were processed

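The deposited values are MAS5 signal intensity on a linear scale, 1 value per probe set and array; MAS5 is the only tool named, per the submitters' processing notes, and its version is not given in the sources used here. MAS5 scales each array to a common trimmed mean (500.1 to 500.2 over the 63 arrays), which cannot show a change common to all genes. The number of arrays limits the precision. Signals below 1 were set to 1 (1145 values on the 6 arrays), log2 was taken, and the brightest of a gene's probe sets was used. The dimmest 40% of 14218 genes over the striatal arrays were left out. Of 31099 probe sets, 20832 had 1 gene symbol, 436 several and 9831 none.

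The main fit used limma 3.58.1 in R 4.3.3 on 31 striatal arrays (20 residual degrees of freedom; 62 arrays for the comparison of regions), with a moderated test, an intensity trend and Benjamini-Hochberg adjustment over 8531 genes. Saline arrays 1 to 3 and 4 to 5 were separate groups, and the methamphetamine 1.25 mg/kg array of cortical profile was dropped. The code was tested on simulated data. Of 789 genes in 29 lists 676 were on the array. The members and lists were chosen with earlier results of these data known. Genes were named by rule: the 15 largest rises and falls among genes that passed without overlap, up to 6 passing members of each list by p, 23 fixed genes, and up to 6 per direction in the other comparisons (the 3 smallest p where none passed); others named with a list's count were chosen after their values were seen. Same-numbered arrays did not deviate together (correlations of -0.19, 0.03 and -0.16). The fit of 11 naive arrays of the same batch was added after seeing the data.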

Additional observations from a re-analysis of the deposited data

Results flagged for a closer look

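The results given here stand out because a test of the difference between groups itself passed limma's adjusted threshold. Between methamphetamine and amphetamine at 5 mg/kg, the effects differed by 0.76 for Fam13b and by -3.16 for Hbb. Between naive and pretreated rats, the methamphetamine effect was higher in naive rats by 1.40 for Dock3, 1.07 for Hspa5, 1.06 for Fubp1, 1.04 for Slc5a7, 0.99 for Otud1 and 0.89 for Fbxo33. It was lower in naive rats, with differences of -1.93 for Angptl4, -1.90 for Cebpd, -1.24 for Gfap, -1.04 for Synm, -0.99 for F3 and -0.97 for Sspn. For Fam13b a second probe set gave a methamphetamine difference of the opposite sign. Hbb rests on low values of saline arrays 4 and 5, and the calls between cohorts have adjusted p-values close to the threshold.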

How the results depend on the processing

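For methamphetamine 5 mg/kg minus saline 1-3, naive striatum, where 78 genes were called, the count was 128 with quantile normalization, 51 with no filter, 177 over all probe sets, 1 with only the arrays compared, 24 with the array of cortical profile kept, 46 against all 5 saline arrays, 421 with array weights, 1 with the Gapdh ratio as covariate and 0 with the same batch only. Leaving out 1 array gave 10 to 195. For the dose comparison (0 called) all probe sets gave 1. Between drugs (2 called), all probe sets gave 1, only the arrays compared 0, naive arrays only 8, the cortical-profile array kept 1, all 5 saline arrays as a shared control 192, array weights 14 and the Gapdh covariate 1, and leaving out 1 array gave 0 to 6. Between cohorts (29 called), quantile normalization, no filter, no intensity trend, only the arrays compared and the cortical-profile array kept each gave 0, with 967 to 1743 genes at an unadjusted p below 0.05. All probe sets gave 19, array weights 384 and the Gapdh covariate 168, and leaving out 1 array gave 0 to 76. Between regions (0 called), no filter gave 1 and all probe sets 2. With the replicate number as a block 62 genes were called against saline and 13 between cohorts, and the drug comparison could not be fitted; the numbers do not pair the arrays. The median SD of the methamphetamine arrays was 0.0839 to 0.224 when 1 was left out. The causes were not tested.

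Differences of named genes that had not passed changed sign as follows. With all 5 saline arrays, Dbp was 0.0249, Adora2a 0.0220 and Sgk1 -0.284. With array weights, Fos was -0.0940, Drd2 0.0342, Adora2a 0.0426 and Hbb -0.0616. With the Gapdh covariate, Fos was -0.0376, Nr4a1 -0.0396, Drd2 0.0654, Adora2a 0.0192, Tac1 -0.0530 and Hbb -0.431. With quantile normalization, Penk was -0.0462 and Hbb -0.0281. Leaving out 1 array moved Fos from -0.325 to 0.454, Arc from -0.461 to 0.0479, Nr4a1 from -0.0880 to 0.323, Drd2 from -0.321 to 0.0530, Adora2a from -0.0890 to 0.0690, Penk from -0.0233 to 0.140, Pdyn from -0.104 to 0.460, Tac1 from -0.0516 to 0.129, Sgk1 from -0.00893 to 0.718 and Hbb from -0.308 to 0.301. The 40 named genes that passed kept their sign in all 785 of their alternatives. Their groups did not overlap, so leaving out 1 array or refitting the same signals by group could not turn the sign. Of the 40, 1 still passed with the Gapdh covariate, 1 with only the arrays compared and 0 with the same batch only.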
